A study of Homo sapiens with 7 samples.

Results

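The genes described here are those of the mitochondrial respiratory chain, its electron carrier cytochrome c and 4 regulators of mitochondrial content, in the melanoma cell line 501Mel. They were chosen by gene symbol, namely the subunit families NDUFA, NDUFB, NDUFC, NDUFS, NDUFV, SDH, UQCR, COX4 to COX8 and ATP5, the mitochondrially encoded MT-ND, MT-CO, MT-ATP and MT-CYB genes, and CYC1, CYCS, PPARGC1A, ESRRA, NRF1 and TFAM. Of the 21305 genes in the table, 111 carried such a symbol. After 6 pseudogenes were left out, 105 remained. They comprised 82 nuclear encoded subunits (36 of complex I, 4 of complex II, 10 of complex III, 13 of complex IV and 19 of complex V), 13 mitochondrially encoded subunits, CYCS, the 4 regulators, and 5 non-coding or readthrough transcripts whose symbols fit the same pattern. A mean of at least 10 normalized counts over the libraries was required for testing, which 102 of the 105 reached. The remaining 3, COX6B2, ATP5MGL and UQCRHL, did not exceed 9.70 normalized counts in any library.

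The respiratory chain is built from the products of separate genomes. Most subunits are encoded in the nucleus, made in the cytosol and imported, whereas a small set of core subunits is transcribed and translated inside the mitochondrion from its own circular DNA, as long transcripts that are cut into single messages. Complex I (NADH dehydrogenase) and complex II (succinate dehydrogenase) pass electrons to complex III (cytochrome bc1), cytochrome c carries them to complex IV (cytochrome c oxidase), and complex V (ATP synthase) uses the resulting proton gradient to make ATP. PPARGC1A encodes PGC1-alpha, a coactivator that works through the nuclear receptor ESRRA and the transcription factor NRF1 on nuclear subunit genes and on TFAM, the protein that packages and transcribes mitochondrial DNA. In melanocytic melanoma, PPARGC1A is a known target of the lineage factor MITF.

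501Mel cells had been transduced with lentivirus and selected with puromycin as stable pools, each carrying a hairpin RNA under a doxycycline-inducible promoter, and all 7 libraries came from doxycycline-treated cells. The control hairpin shlacZ, against a bacterial gene, had 3 libraries. The hairpins sh4 and sh8, both against the long non-coding RNA GRASLND, had 2 libraries each. The labels number the replicates without saying whether they were separate cultures, so p-values measure the spread between these libraries, which may be technical.

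Recovered reads per library ranged from 13337317 to 22855232. GRASLND had 309, 330 and 290 normalized counts with shlacZ, 175 and 131 with sh4, and 227 and 163 with sh8. It fell with sh4 (log2 fold change -1.02 ± 0.21 SE, adjusted p = 0.00662, limma), whereas sh8 gave -0.68 ± 0.21 (adjusted p = 0.110, limma). All 8 melanocytic markers examined were present, and their summed normalized count was 136857 to 147350 with shlacZ, 52416 to 60764 with sh4 and 102842 to 105788 with sh8. Not every marker was lower: the log2 fold change of TYR was 0.15 with sh4 and 0.22 with sh8, and that of MLPH was 0.03 with sh8. No endothelial marker (0 of 3) was in the table, fibroblast markers (1 of 5) and keratinocyte markers (1 of 4) summed to at most 16.5, and among leukocyte markers (2 of 4) the defining genes PTPRC and CD3E were not in the table. The leukocyte sum was 498 to 675 with shlacZ, 914 to 933 with sh4 and 573 to 678 with sh8. It came almost wholly from the lysosomal gene CD68 with shlacZ and sh8, whereas LYZ, which encodes lysozyme, had 337 and 492 normalized counts with sh4 and at most 7.28 in the other libraries. The part of these marker levels in the results below was not tested, and in bulk RNA fewer cells in a state and less RNA per cell cannot be told apart. The library shlacZ replicate 1 stood apart from the other control libraries for many of the genes described here. The value without it is given for each gene of the group whose level is described below and whose call it changed. It was singled out by its values for these same genes, so passes found only without it are no added support. With sh4, 3 genes of the group passed without either shlacZ replicate 2 or shlacZ replicate 3, where 8 passed with all libraries.

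Among the regulators, PPARGC1A was lower in every knockdown library than in every control library. Its normalized counts were 5429, 2749 and 2500 with shlacZ, 1902 and 1603 with sh4, and 1475 and 1790 with sh8. The control libraries themselves spread widely, with shlacZ replicate 1 far above the other two, so that the mean of the control was 3559 ± 1624 (SD, n = 3). With both hairpins pooled, PPARGC1A fell by 0.99 on the log2 scale (SE 0.24, adjusted p = 0.0462, limma), and it also fell with sh4 (-0.94 ± 0.28, adjusted p = 0.0382, limma). With sh8 the difference was of similar size, -1.04 ± 0.28, but did not pass (adjusted p = 0.0825, limma). Without shlacZ replicate 1, the pooled difference was -0.64 (adjusted p = 0.0436, limma), the sh4 difference -0.59 (adjusted p = 0.00943, limma) and the sh8 difference -0.69, which then passed (adjusted p = 0.0154, limma). Without any single library other than that, the pooled value was -1.20 to -0.92 with an adjusted p of 0.0596 to 0.126 by limma. The sh4 value also did not pass without either sh4 library (adjusted p = 0.122 and 0.207) or either sh8 library (0.0550 and 0.0555).

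ESRRA, the orphan nuclear receptor through which PGC1-alpha acts on many subunit genes, fell with sh4 alone. It had 407, 568 and 536 normalized counts with shlacZ, 242 and 246 with sh4, and 414 and 474 with sh8. Both sh4 libraries lay well below every other library, while the sh8 libraries lay within the control range. The log2 fold change was -1.03 ± 0.17 with sh4 (adjusted p = 0.00300, limma) and -0.17 ± 0.17 with sh8 (adjusted p = 0.651, limma). The direct test between hairpins also passed, with sh4 lower than sh8 by a log2 difference of -0.86 ± 0.19 (adjusted p = 0.0259, limma). NRF1, a transcription factor for many nuclear genes of mitochondrial function, had 272, 293 and 291 normalized counts with shlacZ, 200 and 209 with sh4, and 244 and 253 with sh8. The groups did not overlap, and NRF1 fell with sh4 (-0.48 ± 0.15, adjusted p = 0.0477, limma) but sh8 gave -0.20 ± 0.15 (adjusted p = 0.527, limma). Whether the effect of the hairpins on NRF1 differed was not settled by the test between them (-0.28 ± 0.17, adjusted p = 0.368, limma). Without any single library other than shlacZ replicate 1, NRF1 gave -0.51 to -0.45 with sh4 and an adjusted p of 0.0701 to 0.209 by limma. TFAM had 2295, 2857 and 2597 normalized counts with shlacZ, 1748 and 2228 with sh4, and 2216 and 2101 with sh8. All 4 knockdown libraries lay below the lowest control, but neither hairpin passed the test (-0.38 ± 0.14, adjusted p = 0.0797 with sh4 and -0.25 ± 0.14, adjusted p = 0.380 with sh8, limma). TFAM fell with sh4 when shlacZ replicate 1 was left out (-0.46, adjusted p = 0.0244, limma).

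CYCS, the cytochrome c that shuttles electrons between complexes III and IV and triggers apoptosis when released, was the other gene that passed in the pooled comparison. Its normalized counts were 4441, 5317 and 4928 with shlacZ, 2421 and 3272 with sh4, and 3792 and 3076 with sh8. Every knockdown library was below every control library. The pooled log2 fold change was -0.65 ± 0.15 (adjusted p = 0.0435, limma), that of sh4 -0.79 ± 0.16 (adjusted p = 0.00622, limma), and that of sh8 -0.52 ± 0.16 (adjusted p = 0.115, limma). The sh8 value was -0.58 and passed without shlacZ replicate 1 (adjusted p = 0.0429, limma). The pooled value passed without sh8 replicate 1 but not without any single other library (-0.72 to -0.54, adjusted p from 0.0531 to 0.197, limma), and without sh4 replicate 1 the sh4 value was -0.58 with an adjusted p of 0.0728.

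**Figure D1:**
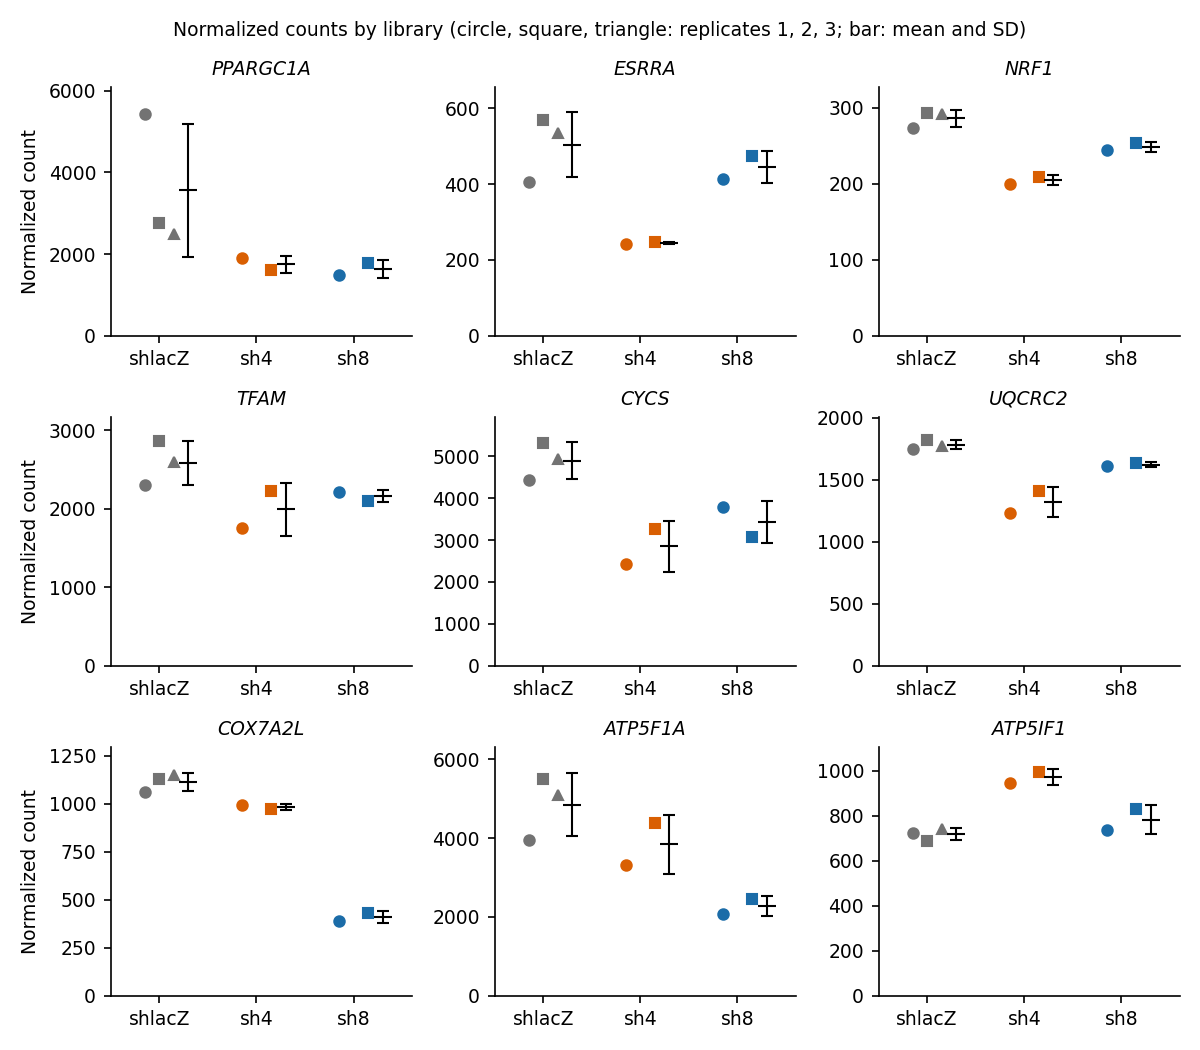
Normalized counts (vertical axis, from 0) of the 4 regulators, CYCS and 4 subunit genes in the 7 libraries. Circles, squares and triangles are replicates 1, 2 and 3, and the bar is the group mean and SD (n = 3, 2 and 2); COX7A2L and ATP5F1A are lowest with sh8, ESRRA is lowest with sh4, ATP5IF1 is highest with sh4, and shlacZ replicate 1 stands apart for PPARGC1A at 5429.

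Across all 102 tested genes of the group, few passed an adjusted p of 0.05, and the shares were near or below those of the whole table. In the pooled comparison 0 were higher and 2 were lower (CYCS and PPARGC1A), where 2.55% of the 15420 genes tested were higher and 2.06% lower. With sh4, 1 was higher and 7 were lower, where the background was 10.5% higher and 11.9% lower. With sh8, 0 were higher and 2 lower, against a background of 1.38% and 1.54%. Between the hairpins, 2 were higher and 1 lower with sh4 than with sh8, where 3.67% and 3.33% of all genes were. A gene was called where it also changed more than 2-fold, that is, by over 1 on the log2 scale. No gene of the group was called in the pooled comparison (background 1.99%), only ESRRA with sh4 (8.16%), COX7A2L and ATP5F1A with sh8 (1.15%), and COX7A2L between the hairpins (3.19%). At an unadjusted p under 0.05 the pooled comparison held 16 genes of the group (15.7%), where 24.1% of all genes were. Limma-voom on the recovered reads passed 1 gene, CYCS, in the pooled comparison. All 4 knockdown libraries were below all 3 controls for 15 genes, where 11.0% of all tested genes were, and above them for 4 genes, where 10.2% of all were.

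Small differences in 1 direction were nevertheless common among the nuclear encoded subunits. In the pooled comparison 66 of the 79 tested had a log2 fold change below 0, with a median of -0.21 (quartiles -0.27 and -0.06). Of all 15420 genes tested, 7804 were below 0, with a median of -0.01. With sh4 the count below 0 was 60 and the median -0.18, and with sh8 it was 68 and -0.17. Among all genes 7797 and 7889 were below 0. None of the 79 passed singly in the pooled comparison (10 at an unadjusted p under 0.05, limma). The control libraries were shared by all of these comparisons, and the 79 subunits shared all 7 libraries, so these counts are not independent observations.

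The pattern was similar in each complex. The pooled medians of the nuclear encoded subunits were -0.13 for complex I, -0.20 for complex II, -0.27 for complex III and -0.22 for both complexes IV and V. With sh4 the medians ran from -0.15 (complex I) to -0.32 (complex III), and with sh8 from -0.13 (complex I) to -0.21 (complex IV). Complex I was the most mixed, with 26 of its 36 subunits below 0 in the pooled comparison, compared with 4 of 4 in complex II, 8 of 9 in complex III, 11 of 12 in complex IV and 17 of 18 in complex V. The exception in complex V was ATP5IF1, which is not a subunit of the enzyme proper but its inhibitor.

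**Figure D2:**
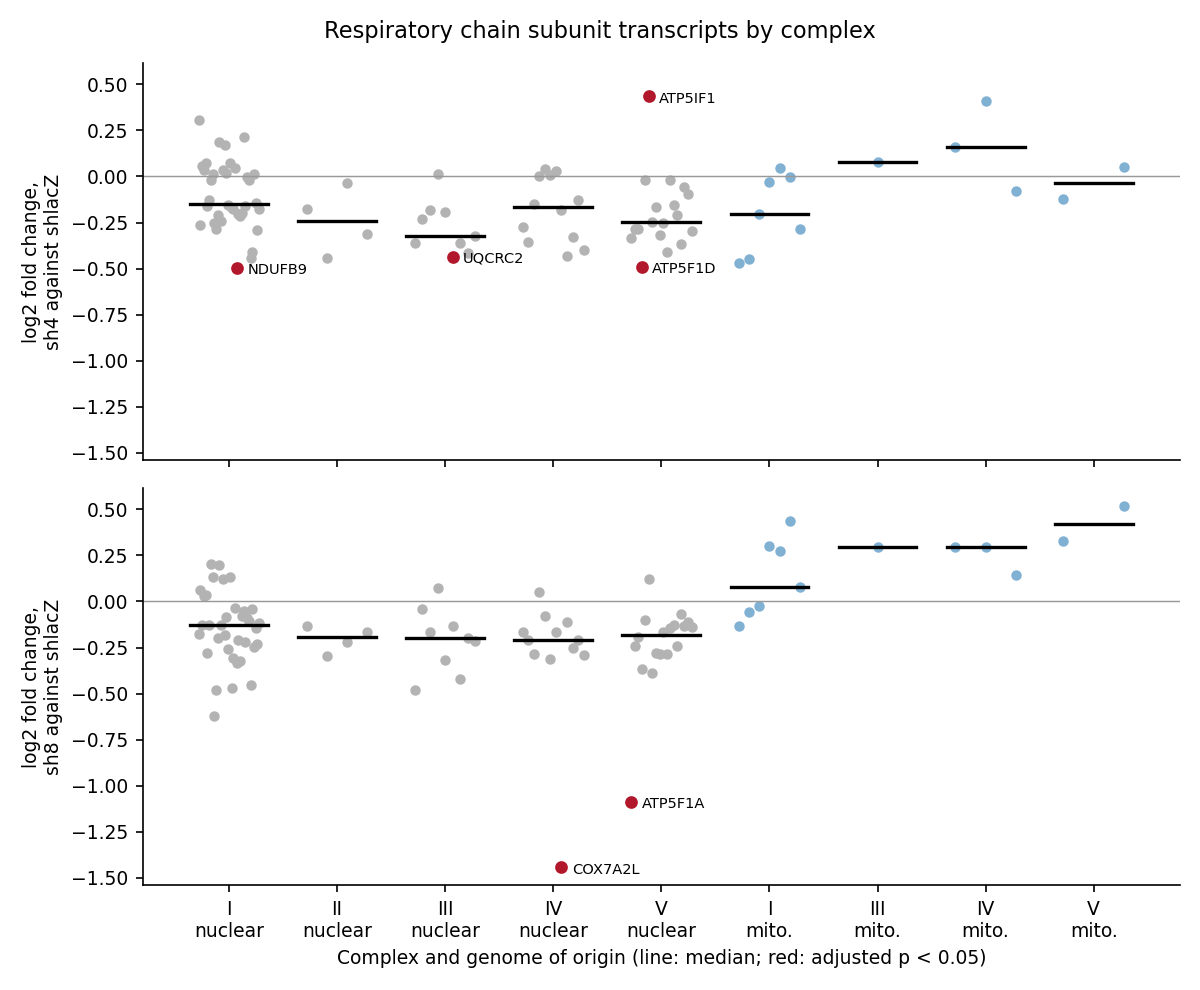
Log2 fold change of each tested subunit (points) with sh4 (top) and sh8 (bottom) against shlacZ, by complex and by the genome that encodes it; lines are medians and red points passed an adjusted p of 0.05. The nuclear medians lie between -0.13 and -0.32, ATP5F1A and COX7A2L stand below -1 with sh8, and the mitochondrially encoded medians lie above 0 with sh8.

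The size of this shift was within the spread of the control libraries. Relative to the control mean, the 79 subunits had a median log2 difference of -0.21, 0.15 and 0.07 for shlacZ, of -0.30 and -0.05 for sh4, and of -0.24 and -0.09 for sh8. In every group replicate 1 was below replicate 2, by a median of -0.36 with shlacZ, -0.29 with sh4 and -0.14 with sh8. For 55 of the 79 subunits (69.6%) replicate 1 was below replicate 2 in all 3 groups, which held for 20.6% of all genes. The subunits were measured in the same libraries, so the 79 are not separate observations of a difference between replicate numbers. Compared within a replicate number, sh4 was below shlacZ by a median of -0.12 (53 of 79 below 0) in replicate 1 and -0.20 (63 of 79) in replicate 2, and sh8 by -0.06 (48 of 79) and -0.26 (70 of 79). Without shlacZ replicate 1, the medians were -0.28 with sh4 and -0.28 with sh8, and 25 genes of the group passed with sh4 (2 higher, 23 lower) and 8 with sh8 (0 higher, 8 lower), where 31.5% and 10.4% of all genes then passed in either direction. Those whose values are not given below were ATP5MF and NDUFC2 (lower with both hairpins), and ATP5PB, COX5A and NDUFS7 (lower with sh4).

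**Figure D3:**
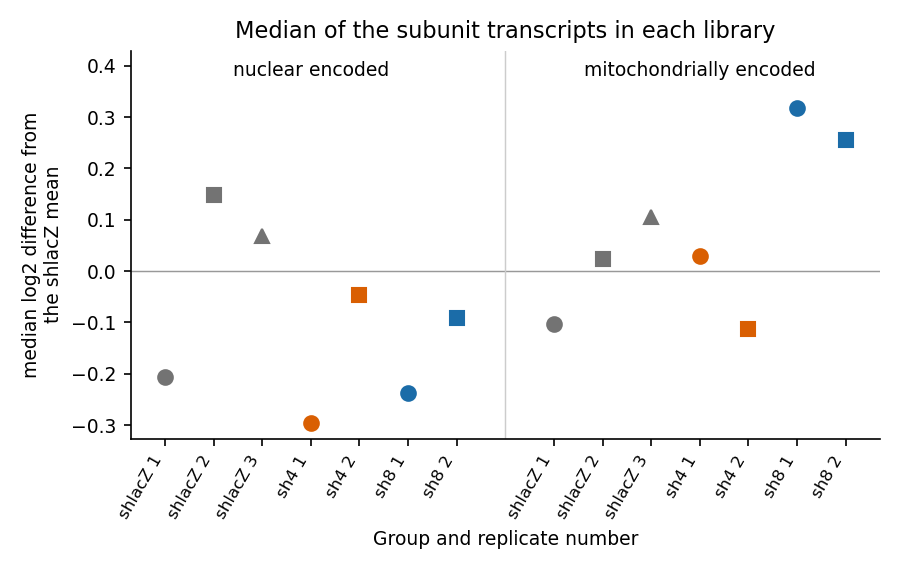
Median log2 difference from the shlacZ mean (vertical axis) over the 79 nuclear encoded (left) and the 13 mitochondrially encoded (right) subunits, in each of the 7 libraries. Grey is shlacZ, orange sh4 and blue sh8, and circles, squares and triangles are replicates 1, 2 and 3. For the nuclear set shlacZ replicate 1 lies at -0.21, beside the knockdown libraries, and for the mitochondrial set both sh8 libraries lie highest.

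Among complex I subunits, NDUFB9, an accessory subunit and the nuclear encoded one with the highest level per length in the control (2453 normalized counts per kb), fell with sh4. It had 1513, 1829 and 1744 normalized counts with shlacZ, 1059 and 1357 with sh4, and 1362 and 1321 with sh8, so that the knockdown libraries were all below the controls. The log2 fold change was -0.49 ± 0.14 with sh4 (adjusted p = 0.0322, limma) and -0.33 ± 0.14 with sh8 (adjusted p = 0.247, limma). The sh4 value passed without shlacZ replicate 1 or sh4 replicate 2 but not without any single other library (-0.49 to -0.32, adjusted p from 0.0520 to 0.262, limma). NDUFS6, an accessory subunit of the electron input module, gave -0.44 with sh4 and did not pass (adjusted p = 0.243, limma). With sh8 the lowest values in complex I were those of the accessory subunits NDUFA7 (-0.62) and NDUFA8 (-0.48), and neither passed. NDUFA7 fell with sh8 when shlacZ replicate 1 was left out (-0.75, adjusted p = 0.0387, limma). Complex II had no gene that passed. The largest difference there was that of SDHB, its iron-sulfur subunit, with 1476, 2057 and 2058 normalized counts with shlacZ, 1191 and 1542 with sh4, and 1404 and 1608 with sh8, where shlacZ replicate 1 fell inside the range of the knockdown libraries (adjusted p = 0.101 with sh4, limma). The membrane anchors SDHD and SDHC gave -0.31 and -0.04 with sh4 and -0.16 and -0.22 with sh8. With shlacZ replicate 1 left out, SDHB (-0.60, adjusted p = 0.00972, limma) and SDHD (-0.41, adjusted p = 0.0390, limma) fell with sh4.

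In complex III, UQCRC2, a core protein of the complex, fell with sh4. It had 1749, 1823 and 1774 normalized counts with shlacZ, 1234 and 1406 with sh4, and 1607 and 1636 with sh8. The controls agreed closely, and the sh4 libraries were below all others (-0.44 ± 0.11, adjusted p = 0.0213, limma), while sh8 gave -0.14 ± 0.11 (adjusted p = 0.563, limma). The sh4 value did not pass without shlacZ replicate 2 or 3 or either sh4 library (-0.53 to -0.34, adjusted p from 0.0503 to 0.166, limma). UQCRH, the hinge protein, had the highest level per length of any nuclear encoded subunit (4683 normalized counts per kb) and a log2 fold change of -0.42 with sh4 that did not pass (adjusted p = 0.0959, limma). Its near-identical copy UQCRHL held 0 to 7.91 normalized counts per library, and how reads were shared between these copies is uncertain. CYC1, the haem-bearing cytochrome c1, had 664, 986 and 913 normalized counts with shlacZ, 588 and 731 with sh4, and 577 and 629 with sh8, a difference that passed with neither hairpin. The Rieske iron-sulfur protein UQCRFS1 gave -0.36 with sh4 and -0.42 with sh8 and passed with neither. Without shlacZ replicate 1, UQCRH (-0.54, adjusted p = 0.0175), UQCRFS1 (-0.55, adjusted p = 0.0476) and CYC1 (-0.53, adjusted p = 0.0179) fell with sh4, and CYC1 also with sh8 (-0.65, adjusted p = 0.0216, limma).

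COX7A2L, which links complexes III and IV in supercomplexes, showed the sharpest difference between the hairpins. Its normalized counts were 1063, 1128 and 1149 with shlacZ, 995 and 970 with sh4, and 388 and 431 with sh8. The sh8 libraries were far below all others, whereas the sh4 libraries lay just under the controls. COX7A2L fell by 1.44 on the log2 scale with sh8 (SE 0.12, adjusted p = 0.000687, limma), the sh4 difference was -0.18 ± 0.12 (adjusted p = 0.325, limma), and the direct difference of sh4 against sh8 was 1.26 ± 0.13 (adjusted p = 0.00160, limma). With sh8 and between the hairpins, it passed under every alternative tried, including without each library in turn. Its paralogue COX7A2 had 975, 1582 and 1525 normalized counts with shlacZ, 1111 and 1663 with sh4, and 954 and 1478 with sh8, with log2 fold changes of 0.03 and -0.16. No other nuclear encoded subunit of complex IV passed with either hairpin. COX7B gave -0.43 (adjusted p = 0.0644, limma) with sh4, and COX6C -0.31 (adjusted p = 0.348, limma) with sh8. COX6A1, the complex IV nuclear subunit with the highest level per length (3013 normalized counts per kb), gave 0.00 and 0.05.

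Some complex IV subunits have isoforms that differ between tissues. COX6B1 had 1233 to 1457 normalized counts with shlacZ, beside 0 to 1.74 for its testis form COX6B2, and COX4I1 had 1725 to 1861. COX4I2, COX6A2, COX7A1, COX7B2 and NDUFA4L2 were not analysed here. NDUFA4, now assigned to complex IV, had 689, 1069 and 1080 normalized counts with shlacZ, 590 and 835 with sh4, and 614 and 937 with sh8, and the groups overlapped. NDUFA4 fell with sh4 when shlacZ replicate 1 was left out (-0.61, adjusted p = 0.0475, limma).

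In complex V, ATP5F1A, the alpha subunit of the catalytic head, fell with sh8. It had 3952, 5498 and 5101 normalized counts with shlacZ, 3309 and 4378 with sh4, and 2087 and 2451 with sh8. The sh8 libraries were below every other library, while the sh4 libraries overlapped the controls. ATP5F1A fell by 1.09 on the log2 scale with sh8 (SE 0.17, adjusted p = 0.0121, limma) and the sh4 difference was -0.34 ± 0.17 (adjusted p = 0.193, limma). The difference between the hairpins was 0.75 ± 0.19 (adjusted p = 0.0424, limma). Without either sh8 library the sh8 value was -0.97 and -1.20 and did not pass (adjusted p = 0.115 and 0.0786, limma). Its partner in the catalytic head, the beta subunit ATP5F1B, had 5671, 8498 and 8122 normalized counts with shlacZ, 5215 and 6906 with sh4, and 5272 and 7244 with sh8. The beta subunit groups overlapped, and its log2 fold change with sh8 was -0.24 ± 0.21 (adjusted p = 0.574, limma).

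ATP5F1D, the delta subunit of the central stalk, fell with sh4 (355, 421 and 395 normalized counts with shlacZ, 294 and 261 with sh4, and 285 and 319 with sh8). All knockdown libraries were below the controls, with a log2 fold change of -0.49 ± 0.16 with sh4 (adjusted p = 0.0479, limma) and -0.37 ± 0.16 with sh8 (adjusted p = 0.245, limma). Without any single library other than shlacZ replicate 1, the sh4 value was -0.57 to -0.41 with an adjusted p of 0.0652 to 0.234 by limma. ATP5IF1, the inhibitor that blocks the enzyme from running backwards, was the only gene of the group that rose against the control with all libraries in the fit. Its normalized counts were 723, 688 and 741 with shlacZ, 945 and 995 with sh4, and 736 and 829 with sh8, and the sh4 libraries were above all others (0.43 ± 0.12, adjusted p = 0.0310, limma). With sh8 the log2 fold change of ATP5IF1 was 0.12 ± 0.12 (adjusted p = 0.643, limma). The sh4 value of ATP5IF1 did not pass without shlacZ replicate 2 or 3 or either sh4 library (0.40 to 0.47, adjusted p from 0.0791 to 0.158, limma). The genes ATP5MC1, ATP5MC2 and ATP5MC3 encode the same mature ring subunit from separate precursors. They had 741, 1466 and 1759 normalized counts on average with shlacZ, and none passed, with log2 fold changes of -0.24, -0.17 and -0.32 with sh4 and -0.39, -0.28 and -0.28 with sh8. With shlacZ replicate 1 left out, ATP5MC3 (-0.42, adjusted p = 0.0353) and the alpha subunit ATP5F1A (-0.48, adjusted p = 0.0321) fell with sh4 (limma).

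Exact matches to short sequences, motifs of NRF1, ESRRA, GABPA and YY1, were searched in the promoters of the nuclear encoded subunits. RefSeq promoter windows (GRCh38.p14, 250 bases before to 50 after each start) were at hand for 66 of the subunit genes, in 79 windows. On either strand, the letters GCGCATGCG of the NRF1 motif stood in 13.9% of these windows, compared with 1.92% of all 35116 windows and 3.22% of the windows of tested protein-coding genes. The ESRRA half-site AAGGTCA stood in 15.2% (3.92% and 2.71%), the ETS motif CCGGAAG of GABPA in 27.8% (10.3% and 17.5%), and AAGATGGC of YY1 in 16.5% (2.89% and 4.90%). A match is a description and no measure of binding. The following stretches, 5′ to 3′ on the strand of the gene, hold the matches before the start of ATP5F1A, which fell with sh8, and of SDHD and NDUFS7, which hold matches to 3 of the 4 motifs in their windows, not all of them printed. Capitals mark the motif or its reverse complement.

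ATP5F1A, ETS, chr18:46098328-46098354 on the minus strand: aggggcagtaCTTCCGGgtcaggtggg
ATP5F1A, ESRRA, chr18:46098301-46098327 on the minus strand: ccggctgtctTGACCTTctttgcggct
SDHD, NRF1, chr11:112086753-112086782 on the plus strand: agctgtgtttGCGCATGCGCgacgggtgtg
SDHD, ETS, chr11:112086786-112086812 on the plus strand: cgcctctcgaCTTCCGGttcacccagc
NDUFS7, ESRRA, chr19:1383726-1383752 on the plus strand: cgcactccgaTGACCTTtccgcctcgg
NDUFS7, NRF1, chr19:1383823-1383851 on the plus strand: ttccggtttcCGCATGCGCtccgagccgc

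In SDHD the NRF1 letters read in both directions across 10 bases and begin 110 bases before the start. In ATP5F1A the ESRRA match begins 21 bases before the start. Subunit genes with an ESRRA match had a median log2 fold change of -0.16 with sh4 (n = 11 genes), and those without had -0.18 (n = 54). With an NRF1 match the median was -0.25 with sh4 (n = 11), and without it was -0.18 (n = 54). With sh8 the medians were -0.16 and -0.16 for ESRRA, and -0.17 and -0.15 for NRF1. None of the 4 motifs stood as an exact match in the windows searched for CYCS, COX7A2L, UQCRC2, ATP5IF1, ESRRA or TFAM. Sites that differ by a letter or lie outside the windows were not searched, so these genes may still hold sites of these factors.

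The 13 mitochondrially encoded subunits did not share the direction of the nuclear ones. They are far more abundant, with a median of 168290 normalized counts per kb in the control, compared with 876 for the 79 nuclear encoded subunits, and took 10.9%, 10.6% and 11.1% of all reads with shlacZ, 12.4% and 10.6% with sh4, and 13.5% and 12.3% with sh8. Both sh8 libraries were above all controls, whereas the sh4 libraries were split between the control range and the sh8 range. The share of reads on the nuclear encoded subunits was 0.505%, 0.574% and 0.559% with shlacZ, 0.468% and 0.554% with sh4, and 0.460% and 0.506% with sh8. The ratio of mitochondrially to nuclear encoded subunit reads was accordingly 21.5, 18.5 and 19.9 with shlacZ, 26.5 and 19.2 with sh4, and 29.4 and 24.4 with sh8.

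None of the 13 passed in any comparison with all 7 libraries (at an unadjusted p under 0.05, 0 in the pooled comparison, 4 with sh4, 2 with sh8 and 4 between the hairpins by limma, where 24.1%, 36.1%, 18.5% and 22.6% of all genes were). Limma-voom on the recovered reads also passed 0. Without shlacZ replicate 1, MT-ND1 (-0.61, adjusted p = 0.0244, limma) and MT-ND2 (-0.60, adjusted p = 0.0272, limma) fell with sh4, and MT-ATP8 was lower with sh4 than with sh8 (-0.47, adjusted p = 0.0418, limma). Their median log2 fold change was 0.13 pooled, -0.03 with sh4 and 0.30 with sh8. With sh8, 10 of 13 were above 0 and 9 lay above every control library. Of all 15420 genes tested, 7530 and 2549 did so. With sh4, 5 were above 0 and 8 below. In both sh4 libraries 11 of 13 were lower than in both sh8 libraries, as were 4259 of all 15420 genes. The scaling of libraries bore on these medians. With quantile normalization they were 0.05 with sh4 and 0.12 with sh8, so that the sign with sh4 depended on the scaling. With scaling to total reads without mitochondrial genes they were 0.08 and 0.35. The median of all genes also moved under that scaling, to 0.10 with sh4 and 0.04 with sh8. Under quantile normalization MT-CO2 and MT-ATP8 rose and MT-ND1 fell with sh4, and MT-ATP8 rose with sh8.

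**Figure D4:**
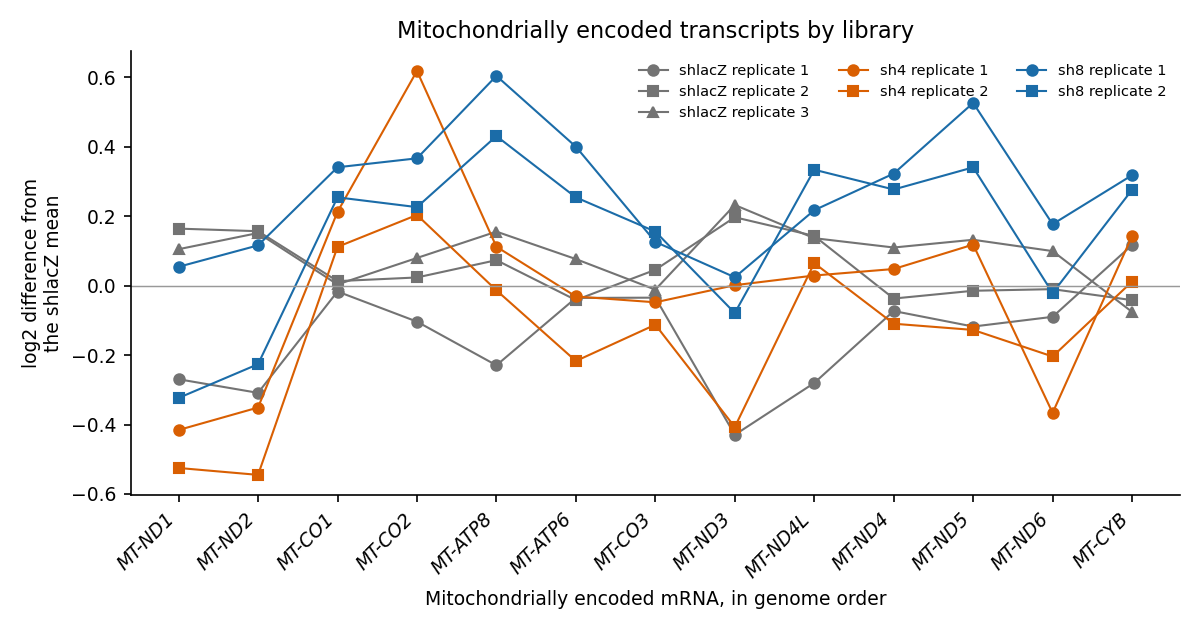
Log2 difference of each mitochondrially encoded mRNA from its shlacZ mean (vertical axis), with genes in the order of the mitochondrial genome (horizontal axis); each line is a library. Both sh8 libraries (blue) lie above the 3 controls (grey) from MT-CO1 to MT-CO3, from MT-ND4L to MT-ND5 and at MT-CYB, and the sh4 libraries (orange) lie lowest at MT-ND1 and MT-ND2, where shlacZ replicate 1 is also below the other controls.

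Genes of this set differed from one another in direction with sh4, and their order along the mitochondrial genome was not tested. MT-ND1 and MT-ND2, the first protein genes after the ribosomal RNA genes and both membrane subunits of complex I, were lowest with sh4. MT-ND1 had 136788, 184786 and 177346 normalized counts with shlacZ, 123605 and 114579 with sh4, and 171224 and 131778 with sh8. Its sh4 libraries were below all others, with a log2 fold change of -0.47 ± 0.19 that did not pass (adjusted p = 0.103, limma). MT-CO1 and MT-CO2, catalytic subunits of complex IV that follow in the genome, differed the other way. MT-CO2 had 106988, 116853 and 121490 normalized counts with shlacZ, 176496 and 132391 with sh4, and 148236 and 134469 with sh8, every knockdown library above every control (0.35 ± 0.18 pooled, adjusted p = 0.250, limma). MT-CO1 had 466208 to 475974 with shlacZ and 509661 to 597474 in the knockdown libraries. The ratio of MT-ND1 to MT-CO1 reads was 0.293, 0.388 and 0.375 with shlacZ, 0.226 and 0.225 with sh4, and 0.287 and 0.234 with sh8. All 4 knockdown libraries were below the controls in this ratio, although shlacZ replicate 1 and sh8 replicate 1 were close to each other. Other ratios to MT-CO1 did not separate the groups in this way. For MT-ND2 the ratio was 0.340 in sh8 replicate 1 and 0.325 in shlacZ replicate 1. For MT-CO2 both sh8 libraries (0.248 and 0.239) lay within the control range of 0.229 to 0.257. The sh4 libraries (0.323 and 0.260) lay above that range. For MT-CYB knockdown and control libraries overlapped.

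MT-ATP8 and MT-ATP6, subunits of complex V, share a message in which the reading frames overlap. In hg38 the overlap is chrM:8527-8572 on the plus strand, shown because reads inside it belong to both genes, with the start codon of MT-ATP6 and the stop codon of MT-ATP8 in capitals.

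MT-ATP8 and MT-ATP6: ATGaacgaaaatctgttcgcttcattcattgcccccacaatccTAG

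MT-ATP8 had 26979, 33282 and 35234 normalized counts with shlacZ, 34187 and 31338 with sh4, and 48086 and 42641 with sh8. The sh8 libraries were above all others, with a log2 fold change of 0.52 ± 0.15 that was the largest among the 13 with sh8 and did not pass (adjusted p = 0.0962, limma). MT-ATP6 had 162186, 161497 and 175274 with shlacZ, 162659 and 142989 with sh4, and 219365 and 198250 with sh8, so that the sh8 libraries were again above all others. MT-ND4 and MT-ND5, complex I subunits, were also above all controls in both sh8 libraries (0.30 and 0.43), as were MT-ND4L, MT-CYB and MT-CO3 (0.28, 0.30 and 0.14). MT-ND6, the only one of the set encoded on the other strand and the least abundant per length (6840 normalized counts per kb in the control), had 3370, 3561 and 3842 with shlacZ, 2782 and 3113 with sh4, and 4055 and 3534 with sh8. Like MT-ND1, it was lowest in the sh4 libraries and did not pass (-0.29, adjusted p = 0.116, limma). MT-ND3 had 14141, 21837 and 22378 with shlacZ and 14363 to 19370 in the knockdown libraries, with shlacZ replicate 1 the lowest of all. The table also held 48 nuclear copies of mitochondrial genes, with 18374 to 28721 normalized counts per library in sum, most of it MTND2P28 (11492 to 19060). Reads of these copies cannot be told apart with certainty from those of MT-ND2 and the other originals.

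The 5 non-coding or readthrough transcripts were low, with at most 120.5 normalized counts in any library, and none passed with all libraries in the fit. They did not share a direction. In the pooled comparison 3 were above 0 and 2 below, as with sh4 and with sh8 (lowest -0.82, -0.65 and -1.14). NDUFA6-DT, a divergent transcript beside NDUFA6, had 18.3 to 20.6 normalized counts with shlacZ, 41.8 and 29.9 with sh4, and 40.9 and 30.0 with sh8, all knockdown libraries above the controls (0.81 ± 0.28 pooled, adjusted p = 0.118, limma). NDUFB2-AS1 had 6.28 to 22.7 with shlacZ and 30.5 and 35.1 with sh4 (adjusted p = 0.0898, limma). It rose with sh4 when shlacZ replicate 1 was left out (1.74, adjusted p = 0.0187, limma), where sh8 gave 0.48 (adjusted p = 0.536, limma). The strand setting of the counting is not given in the sources used here, so reads of this antisense gene and of NDUFB2 may be mixed.

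Genes that assemble, regulate or feed the chain were taken from lists set beside the subunits. Values without single libraries, shlacZ replicate 1 included, are not given for the genes of these lists. Of the other PGC1 family members and partners, 19 were tested. With sh4, 1 rose and 4 fell (median -0.24), where 10.5% and 11.9% of all genes did, and with sh8 1 rose and 1 fell (median -0.06), where 1.38% and 1.54% did. PPARGC1B, the closest relative of PPARGC1A, had 574, 656 and 632 normalized counts with shlacZ, 236 and 222 with sh4, and 634 and 553 with sh8. It fell with sh4 (-1.43 ± 0.14, adjusted p = 0.000200, limma), sh8 gave -0.06 ± 0.14 (adjusted p = 0.853, limma), and the difference between hairpins was -1.37 ± 0.16 (adjusted p = 0.00183, limma). The pattern over groups resembled that of ESRRA, low in both sh4 libraries and near the control in both sh8 libraries. The lineage factor MITF, in the same list, had 22076, 20552 and 17326 with shlacZ, 12619 and 11635 with sh4, and 19031 and 17418 with sh8, and fell with sh4 (-0.71 ± 0.13, adjusted p = 0.00483, limma). With sh8 MITF gave -0.13 ± 0.13 (adjusted p = 0.658, limma), and the difference between hairpins was -0.59 ± 0.15 (adjusted p = 0.0415, limma). PPARD, a fatty acid receptor, rose with both hairpins (0.67 ± 0.15 with sh4, adjusted p = 0.0103, and 0.82 ± 0.15 with sh8, adjusted p = 0.0186, limma). MITF and PPARD were singled out after their values were seen.

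All 48 assembly factors were tested. With sh4, 0 rose and 10 fell (median -0.25), where 10.5% and 11.9% of all genes did. With sh8, 0 rose and 1 fell (median -0.17), where 1.38% and 1.54% did, and in the pooled comparison 0 rose and 1 fell (median -0.20), where 2.55% and 2.06% did. TMEM177, which helps to assemble complex IV, had 229, 263 and 237 normalized counts with shlacZ, 115 and 124 with sh4, and 141 and 144 with sh8, and fell in all 3 comparisons (-0.89 ± 0.16 pooled, adjusted p = 0.0217, limma). SDHAF3, an assembly factor of complex II, fell with sh4 (-1.24 ± 0.17, adjusted p = 0.00114, limma), from 359 to 484 normalized counts with shlacZ to 174 and 172.

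Of 20 tested genes of mitochondrial RNA processing and stability, 1 rose and 7 fell with sh4 (median -0.36), and 0 rose and 2 fell with sh8 (median -0.20). The shares of all genes that rose and fell were 10.5% and 11.9% with sh4, and 1.38% and 1.54% with sh8. PRORP, the nuclease that cuts transfer RNAs out of the long mitochondrial transcripts, rose with sh4. It had 504, 579 and 565 normalized counts with shlacZ, 1015 and 1243 with sh4, and 506 and 488 with sh8, so that only the sh4 libraries were high (1.03 ± 0.14, adjusted p = 0.000998, limma), and the hairpins differed by 1.18 ± 0.15 (adjusted p = 0.00291, limma). LRPPRC, which stabilises mitochondrial messages, had 11225, 12194 and 10464 with shlacZ, 6194 and 6732 with sh4, and 9983 and 8375 with sh8, and fell with sh4 (-0.80 ± 0.13, adjusted p = 0.00199, limma). FASTKD2 and GRSF1, proteins of mitochondrial RNA granules, fell with both hairpins (FASTKD2 -0.72 with sh4 and -0.73 with sh8, GRSF1 -0.47 and -0.73). These last 3 genes were singled out after their values were seen. Of 15 genes of mitochondrial DNA copying and transcription, 0 rose and 2 fell with sh4 (median -0.32), and 0 passed with sh8 (median -0.06, 1 gene at an unadjusted p under 0.05 by limma, where 18.5% of all genes were).

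Among 18 genes of the outer membrane and protein import, 0 rose and 8 fell with sh4 (median -0.50), where 10.5% and 11.9% of all genes did, and 0 rose and 1 fell with sh8 (median -0.33), where 1.38% and 1.54% did. TIMM50, a receptor of the inner membrane import channel, had 1646, 2233 and 2111 normalized counts with shlacZ, 757 and 790 with sh4, and 1134 and 1036 with sh8. It fell in every comparison with the control (-1.11 ± 0.17 pooled, adjusted p = 0.0124, -1.36 ± 0.15 with sh4, adjusted p = 0.000329, and -0.87 ± 0.15 with sh8, adjusted p = 0.0152, limma). Of 25 genes of the tricarboxylic acid cycle and pyruvate dehydrogenase, 2 rose and 5 fell with sh4 (median -0.16), where 10.5% and 11.9% of all genes did, and 0 passed with sh8 (median -0.14, 5 at an unadjusted p under 0.05 by limma, where 18.5% of all genes were). The 2 that rose act on pyruvate dehydrogenase in opposite directions, namely the kinase PDK2 (1.26 ± 0.23, adjusted p = 0.00416, limma) and the phosphatase PDP1 (1.19 ± 0.21, adjusted p = 0.00350, limma). PDK4, a kinase of the same enzyme, had 6878, 6021 and 7829 normalized counts with shlacZ, 4625 and 4898 with sh4, and 8593 and 12684 with sh8, and it differed between the hairpins (-1.13 ± 0.19, adjusted p = 0.00779, limma). Of 11 antioxidant genes, 1 rose and 2 fell with sh4 (median 0.02), where 10.5% and 11.9% of all genes did, and 0 passed with sh8 (median -0.06, 3 at an unadjusted p under 0.05 by limma, where 18.5% of all genes were).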

How the data were processed

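The study's rRNA-depleted, stranded libraries were read from 1 deposited table of normalized counts per gene. Per the labels and the study's methods, the authors trimmed adapters with cutadapt, mapped to hg38 (GRCh38) with STAR, quantified with Salmon and tested the counts with DESeq2. Tool versions are not given in the sources used here. In each library all values (100%) were whole multiples of 1 read within 0.1, so the counts had been divided by 1 factor per library, and such scaling would hide a change common to most genes. The recovered reads (13337317 to 22855232 per library) gave the depth, read shares and 1 alternative test.

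The members and lists were chosen with earlier results of these data known. Genes were tested with limma (3.58.1, R 4.3.3) on log2(normalized count + 1) with a variance trend, for 15420 genes with a mean of at least 10, with Benjamini-Hochberg adjustment over all of them. Fold changes are on that scale and understate those of low genes. Passed means an adjusted p under 0.05, and called also over 1 in absolute log2 fold change. Pooled values came from a fit with 2 levels and hairpin values from a fit with 3 groups. The fit was tested on simulated data. Lists were described by counts and medians, with no test. Coordinates and lengths came from GENCODE 44 (hg38), which held 21281 of the gene identifiers, and levels per kb use the canonical transcript. RefSeq promoter windows matched 74 of the 105 genes.

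Named genes were the regulators, CYCS, CYC1, the mitochondrially encoded genes, in each complex the highest level per length and the 2 largest log2 fold changes with each hairpin, genes called in any comparison, the isoform sets, and list genes called in any comparison. NDUFS6, NDUFA6-DT and NDUFB2-AS1 were described outside this rule. Some genes were named only because they passed without shlacZ replicate 1. Alternatives were other pseudocounts, minimum means, scalings, no variance trend, limma-voom, a replicate block, fits of fewer or more groups, and each library left out in turn. The columns of the table held 0 samples of other series. The replicate numbers were not taken to pair the libraries. The table's gene symbols were used, and 4633 genes without a symbol could not match the rule.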

Additional observations from a re-analysis of the deposited data

Results flagged for a closer look

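Genes of the group whose effect differed between the hairpins by the direct limma test were COX7A2L (sh4 minus sh8, 1.26 on the log2 scale), ATP5F1A (0.75) and ESRRA (-0.86). COX7A2L and ATP5F1A were low in the sh8 libraries, and ESRRA was low in the sh4 libraries. COX7A2L passed this test without each library in turn, with values from 1.19 to 1.34. ATP5F1A (0.55 to 0.95) did not pass without shlacZ replicate 3 or without any single one of the 4 knockdown libraries, and ESRRA (-0.96 to -0.76) did not pass without any single one of the 4 knockdown libraries.

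Among the 36 named genes examined for a library far from the others, NDUFB9 alone had one, with sh4 replicate 1 at 1059 normalized counts beside 1321 to 1362 in the other 3 knockdown libraries (gap of 0.864 of the range). Chance alone sets a library apart in this way in about 1 in 20 groups.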

How the results depend on the processing

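The counts of genes that passed were small and moved with the processing, and the cause was not tested. In the pooled comparison 4.61% of all genes passed. That share was 0.895% without the variance trend and 0.272% with a replicate block. It was 16.4% when the pooled value came from the fit with 3 groups. The pooled count of genes of the group was 2. It was 1 with total read scaling, with total read scaling without mitochondrial genes, with quantile normalization and with limma-voom, 0 without the variance trend and with a replicate block, 6 when the pooled value was the mean of both hairpins from the fit with 3 groups, and 0 to 1 without each library. With sh4 the share of all genes was 22.5%, then 16.2% without the variance trend and 31.5% without shlacZ replicate 1. The count of genes of the group with sh4 was 8. It was 5 with both total read scalings, 4 without the variance trend and 4 in a fit of the 2 groups alone. It was 2 to 25 without each library, namely 25 without shlacZ replicate 1, 3 without shlacZ replicate 2 or 3, 2 without sh4 replicate 1, and 4 without any 1 of the other knockdown libraries. With sh8 the count was 2. It was 1 without the variance trend and 1 to 8 without each library (8 without shlacZ replicate 1, 1 without either sh8 library). Between the hairpins it was 3, then 1 without the variance trend and 1 to 4 without each library (1 without any single one of the 4 knockdown libraries).

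Medians of the nuclear encoded subunits kept their sign and moved by less than the SD of the control libraries in every alternative. Without each library they ranged from -0.30 to -0.05 with sh4 and from -0.28 to -0.09 with sh8. The mitochondrially encoded median moved by more than that SD with total read scaling without mitochondrial genes (0.078 with sh4, where the median of all genes moved to 0.10) and with quantile normalization (0.12 with sh8). Without each library it ranged from -0.11 to 0.03 with sh4 and from 0.24 to 0.32 with sh8. Of 270 repeats of the 15 single-gene results, 184 still passed, 86 did not and 0 changed sign. ESRRA with sh4, and COX7A2L with sh8 and between the hairpins, passed in all of theirs.

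With a replicate block, 0 genes of the group passed in the pooled comparison, 6 with sh4, 3 with sh8 (PPARGC1A in addition) and 3 between the hairpins. Of all genes, 0.272%, 21.9%, 3.72% and 9.51% then passed in these comparisons. Libraries with the same number correlated in their deviations by 0.337 and 0.213 (shlacZ and sh4), 0.117 and -0.078 (shlacZ and sh8) and 0.034 (sh4 and sh8). In a group of 2 libraries the deviations mirror each other, so these correlations cannot decide whether the numbers pair the libraries. The main fit did not pair them. A difference under about 0.3 on the log2 scale was within 2 SE for most subunits.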
